A study of Mus musculus with 6 samples.

Results

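Endothelin-1, nitric oxide, prostacyclin, apelin and adrenomedullin are signals that blood vessels use to set their own tone. The report follows 9 genes of these systems in the heart, chosen by name: the ligand genes Edn1, Apln and Adm, the receptor genes Ednra, Ednrb and Aplnr, and the enzyme genes Ece1, Nos3 and Ptgis. All 9 were among the 30914 genes of the deposited table, and all 9 passed the limit on low values, namely 0.5 FPKM or more in 3 or more libraries, which left 13089 genes for testing. FPKM is the number of fragments of a gene relative to the length of its transcripts and to the mapped fragments of the library, so levels of different genes can be set side by side.

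RNA was sequenced from hearts of male WT C57BL/6J mice that were 8 weeks old when procured, before the infusion. The Ang II group (n = 3) received angiotensin II, a vasoconstrictor peptide that raises blood pressure and causes cardiac hypertrophy, from osmotic pumps at 1 μg/kg/min for 4 weeks. The Ang II + Tec group (n = 3) received the same infusion and, in the last 2 weeks, the flavonoid tectochrysin (Tec) at 5 mg/kg by intraperitoneal injection. All 6 mice therefore carried the Ang II infusion, and the comparison asks how hearts with Tec differed from hearts with Ang II alone. Mice without Ang II were not analysed here. Each library is taken as 1 heart, and the labels do not say which part of the heart was used.

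Endothelin-1 is made as a larger precursor in endothelial cells and is cut to its active form by the endothelin-converting enzyme that Ece1 encodes. It acts on the receptor ETA (Ednra), which contracts smooth muscle, and on the receptor ETB (Ednrb), which in endothelium releases nitric oxide and clears the peptide. Endothelial nitric oxide synthase (Nos3) and prostacyclin synthase (Ptgis) make short-lived mediators that relax smooth muscle. Apelin, acting on its receptor APJ (Aplnr), and adrenomedullin, acting on the receptor that Calcrl forms with Ramp proteins, are vasodilator peptides, and apelin also raises cardiac contractility.

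The 3 ligand genes are those whose products start each signal, so the bases before their start sites are shown. Each run is the 250 bases upstream of a transcript start in RefSeq on GRCm38.p6, written 5′ to 3′ on the strand of the gene, and capitals mark a match to a searched motif. The Edn1 window is chr13:42301226-42301475 on the plus strand, and the Apln window is chrX:48034854-48035103 on the minus strand. The Adm window is chr7:110627407-110627656 on the plus strand, within the span of the antisense gene Gm28863.
Edn1: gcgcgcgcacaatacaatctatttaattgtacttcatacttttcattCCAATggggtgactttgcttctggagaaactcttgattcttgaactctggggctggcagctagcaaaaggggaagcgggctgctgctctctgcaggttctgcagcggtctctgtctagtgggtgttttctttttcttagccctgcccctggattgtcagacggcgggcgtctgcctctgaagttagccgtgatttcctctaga
Apln: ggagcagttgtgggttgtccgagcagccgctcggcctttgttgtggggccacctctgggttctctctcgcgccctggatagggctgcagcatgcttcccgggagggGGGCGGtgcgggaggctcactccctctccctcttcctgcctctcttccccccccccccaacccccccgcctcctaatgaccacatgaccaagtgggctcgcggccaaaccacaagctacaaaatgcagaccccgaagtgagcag
Adm: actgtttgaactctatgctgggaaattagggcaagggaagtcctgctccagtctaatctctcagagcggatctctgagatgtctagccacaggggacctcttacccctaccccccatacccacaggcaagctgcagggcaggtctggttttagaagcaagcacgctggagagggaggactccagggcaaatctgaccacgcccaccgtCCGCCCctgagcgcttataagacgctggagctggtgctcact

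Motifs were searched on both strands. The CCAAT box (CCAAT), present in 33.8% of the 32851 RefSeq windows of this length, matched once in the Edn1 window. The GC box (GGGCGG), present in 32.7% of windows, matched once in the Apln window and once in the Adm window. The letters searched for the TATA box (TATAAA, in 12.4% of windows), AP-1 (TGANTCA, 6.75%), GATA factors (GATAA, 22.6%), the core of the hypoxia response element (ACGTG, 16.6%) and NF-kappa B (0.356%) were not in these 3 windows. The 3 ligand windows differed in base composition, with a GC content of 50.4% for Edn1, 56.8% for Adm and 65.2% for Apln. Of the 9 members, 6 matched an entry of the promoter table.

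Some properties of the libraries bear on every value below. The atrial genes Myl7, Myl4, Sln and Bmp10 summed to 637 and 797 FPKM in Ang II replicates 1 and 2 and to 1568 FPKM in Ang II + Tec replicate 2, but to between 0.29 and 2.62 FPKM in the other 3 libraries. The 7 fibroblast markers summed to 705, 929 and 163 FPKM with Ang II alone and to 136, 221 and 150.2 FPKM with Tec, which placed the third Ang II heart (replicate 3) among the treated ones. The summed 5 leukocyte markers ranged from 149.7 to 322 FPKM with Ang II alone and from 109.5 to 119.7 FPKM with Tec, and the 10 markers of smooth muscle and pericytes from 249.8 to 479 and from 212 to 370 FPKM. Most of the leukocyte sum was Lyz2, at 134.9 to 290 FPKM with Ang II alone and 97.0 to 107 FPKM with Tec. The sum of the 12 endothelial markers varied little, from 162.8 to 179.9 FPKM with Ang II alone and from 149.5 to 167 FPKM with Tec. Within the list, 3 of 12 (Kdr, Egfl7 and Cldn5) were lower in every treated heart, against 18.9% of all tested genes. The mitochondrial genome took 40.1% to 48.9% of the summed FPKM with Ang II alone and 49.6% to 52.5% with Tec, and was lowest in Ang II replicates 1 and 2, at 41.3% and 40.1%. Cardiomyocyte markers were high in every library, with Myh6 between 678 and 1491 FPKM, which is what heart tissue should show. Over all tested genes the median log2 difference, Tec minus Ang II alone, was -0.17, and median-of-ratios scaling of the libraries brought it to 0.0020. Values on both scales are therefore given for the 9 members and for the tested pathway genes described heart by heart. Log2 fold changes are on the scale of log2(FPKM + 1) and understate changes of low genes. In bulk tissue, fewer cells of a type and less RNA per cell cannot be told apart.

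**Figure D1:**
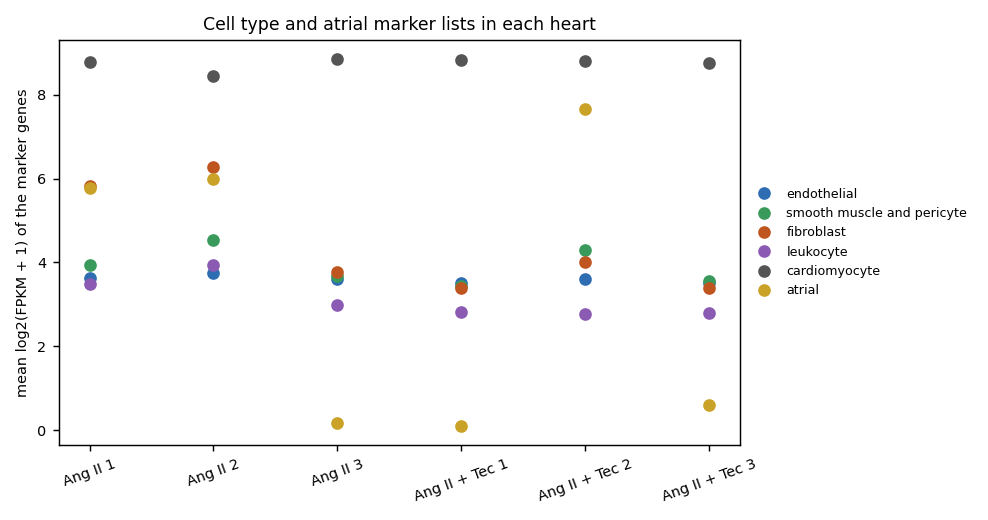
Mean log2(FPKM + 1) of each marker list (y axis) in each of the 6 hearts (x axis), 1 point per list and heart. The atrial list is high in Ang II replicates 1 and 2 and in Ang II + Tec replicate 2, the fibroblast list is high in Ang II replicates 1 and 2, and the endothelial list is nearly level.

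Differences between the groups were not of 1 size or direction across the 9 genes. Mean FPKM of Ptgis, Edn1, Ednrb and Aplnr was lower in the Ang II + Tec group, at 0.386, 0.341, 0.542 and 0.620 of the Ang II mean, whereas the means of Nos3, Ece1, Ednra and Adm lay between 0.912 and 1.14 of it and that of Apln at 0.818. With limma across all genes, 0 of the 9 members had an adjusted p-value under 0.05, where 24 of 13089 tested genes (0.183%) did, made up of 0.084% lower with Tec and 0.0993% higher. At an unadjusted p-value under 0.05 there were 2 of 9, Aplnr and Ednrb, both lower, against 18.6% of all tested genes in either direction and 16.5% in the lower direction. Which genes passed depended on the scaling. After median-of-ratios scaling, and likewise after quantile normalization, the 2 of 9 at an unadjusted p-value under 0.05 were Ece1 and Nos3, both higher, against 7.36% (median-of-ratios) of all tested genes in the higher direction. In the deposited FPKM the groups overlapped in all 9 genes, where 21.8% of all tested genes did not overlap. Overlap was not counted after scaling, where it can differ. The fitted difference was below 0 in 6 of the 9 members and in 80% of all tested genes, and after median-of-ratios scaling in 5 of the 9 and in 49.6%. The median log2 fold change of the 9 was -0.19, close to the -0.17 of all tested genes.

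**Figure D2:**
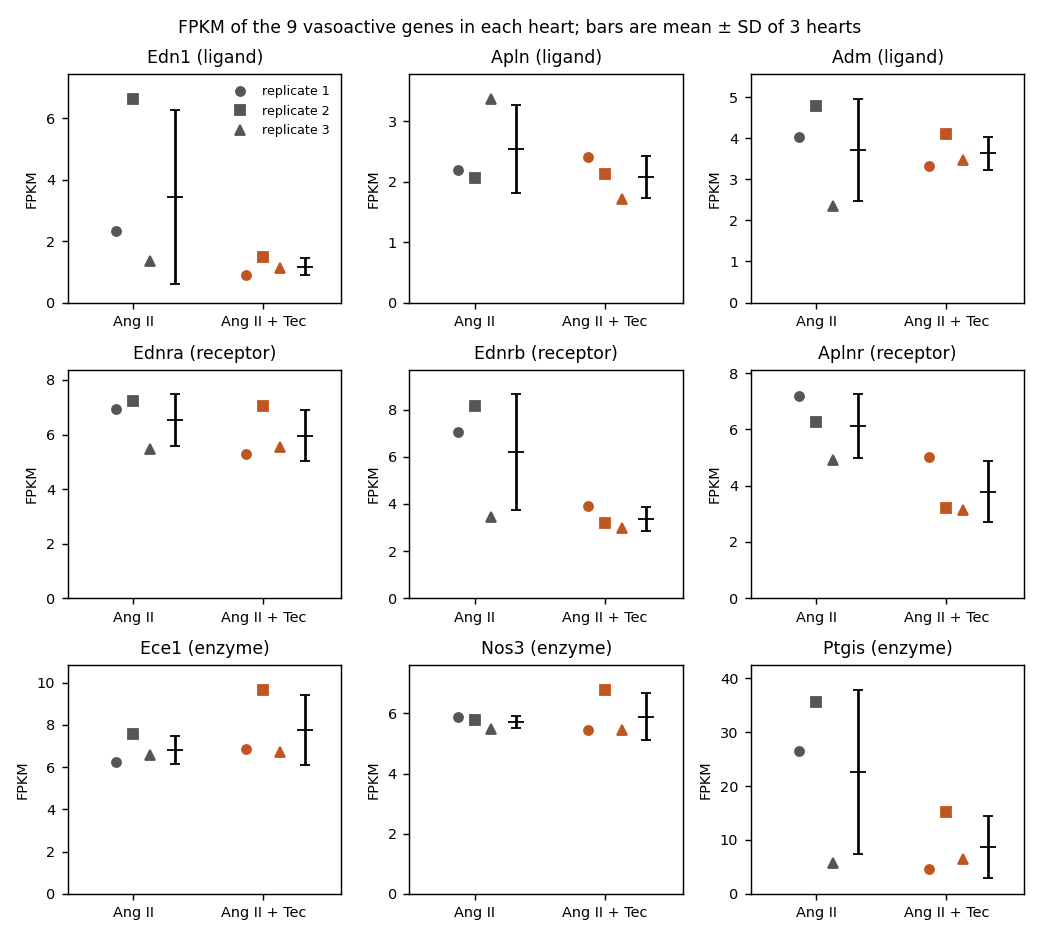
FPKM of each of the 9 genes (y axis, from 0) in each heart, with grey symbols for Ang II, orange for Ang II + Tec, the symbol shape for the replicate, and the mean ± SD of 3 hearts as a bar. Ang II replicate 3 lies beside the treated hearts for Edn1, Ednrb and Ptgis.

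The number of calls rested on Ang II replicate 3. Without it, 4 of the 9 members had an adjusted p-value under 0.05 (Edn1, Ednrb, Aplnr and Ptgis, all lower), but so did 28.8% of all tested genes. With libraries weighted by their estimated quality (arrayWeights), 3 of the 9 did (Edn1, Ednrb and Ptgis), against 27.1% of all tested genes. Leaving out any other single library left 0 of the 9 members past the threshold. Fibroblast, leukocyte and atrial markers were also higher in Ang II replicates 1 and 2 than in Ang II replicate 3, and their part in the members' differences was not tested beyond the splits by atrial transcripts given below. Those splits leave 1 heart in 1 arm (Ang II replicates 1 and 2 against Ang II + Tec replicate 2, and Ang II replicate 3 against Ang II + Tec replicates 1 and 3), so they are given as values without a test.

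**Figure D3:**
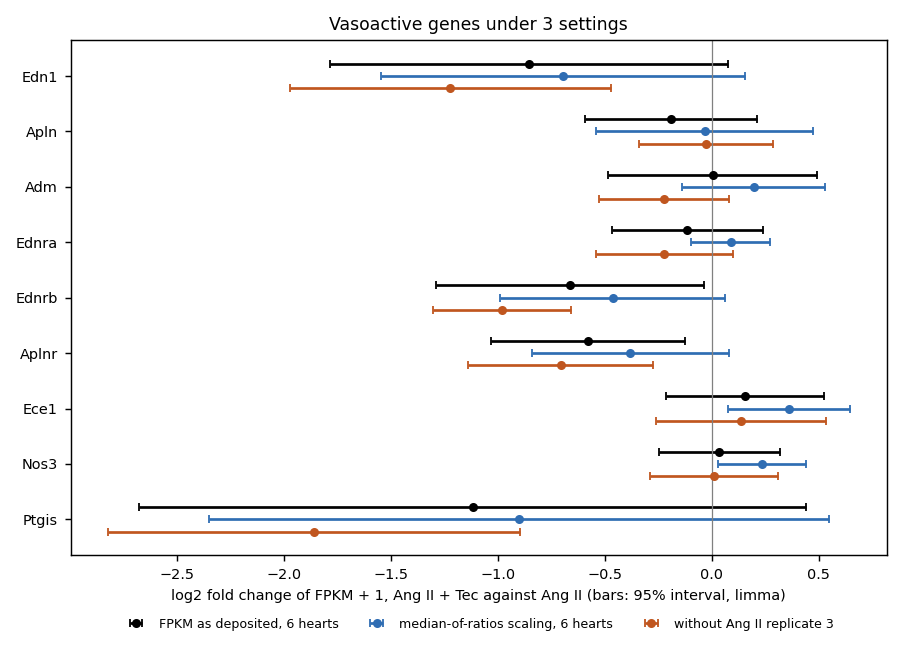
Log2 fold change of FPKM + 1 in the Ang II + Tec group against the Ang II group (x axis) for each gene (y axis) with 95% intervals from limma, for the 6 hearts as deposited (black), after median-of-ratios scaling (blue) and without Ang II replicate 3 (orange). Edn1, Ednrb, Aplnr and Ptgis lie below 0 in each, and their intervals without Ang II replicate 3 lie wholly below 0.

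Of the ligands, Edn1 (ENSMUSG00000021367, chromosome 13 from 42301476 to 42307990, plus strand) had the widest spread. Its FPKM was 2.32, 6.64 and 1.34 with Ang II alone (replicates 1 to 3, an order kept throughout) and 0.91, 1.47 and 1.13 with Tec. The highest value was that of Ang II replicate 2, and the groups overlapped because the lowest Ang II heart, replicate 3, did not reach Ang II + Tec replicate 2. The means were 3.43 ± 2.82 (SD, n = 3) and 1.17 ± 0.282 FPKM (SD, n = 3), a log2 fold change of -0.85 (standard error, SE, 0.40, 95% interval -1.78 to 0.075, limma adjusted p-value 0.290). After median-of-ratios scaling the log2 fold change of Edn1 was -0.70 (SE 0.35). It was -1.22 without Ang II replicate 3 (limma adjusted p-value 0.0291) and -0.37 without Ang II replicate 2, so the size of the difference depended on these 2 hearts. Within the 3 libraries with atrial transcripts Edn1 was at -1.03, and in the other 3 at -0.21. Edn1 was the lowest or next to lowest of the members in 5 of the 6 libraries, the exception being Ang II replicate 2.

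Apln (ENSMUSG00000037010, chromosome X from 48025146 to 48034853, minus strand) had FPKM of 2.19, 2.07 and 3.38 with Ang II alone and 2.41, 2.13 and 1.71 with Tec. Here Ang II replicate 3 was the highest heart, whereas for Edn1 it was the lowest of the Ang II hearts. In limma its log2 fold change was -0.19 (SE 0.17, 95% interval -0.59 to 0.21, limma adjusted p-value 0.518), which did not exceed the spread between hearts. After median-of-ratios scaling Apln was at -0.034 (SE 0.21). It was at -0.028 without Ang II replicate 3 and at -0.53 in the 3 libraries without atrial transcripts.

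Adm (ENSMUSG00000030790, chromosome 7 from 110627661 to 110629820, plus strand) had FPKM of 4.03, 4.78 and 2.35 with Ang II alone and 3.33, 4.09 and 3.46 with Tec. The treated hearts lay within the range of the Ang II hearts. The fitted log2 fold change was 0.0044 (SE 0.21, 95% interval -0.48 to 0.49, limma adjusted p-value 0.990). It turned to -0.22 without Ang II replicate 3, whose value was the lowest of the 6, and was 0.19 after median-of-ratios scaling.

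The pair of endothelin receptors differed in how much they varied. Ednra (ENSMUSG00000031616, chromosome 8 from 77663031 to 77724464, minus strand) had FPKM of 6.92, 7.23 and 5.46 with Ang II alone and 5.30, 7.03 and 5.55 with Tec, with the highest heart at 1.36 times the lowest. Its 3 highest values were those of the 3 libraries with atrial transcripts. Its fitted difference on the log2 scale was -0.12 (SE 0.15, 95% interval -0.47 to 0.24, limma adjusted p-value 0.650). It was 0.088 after median-of-ratios scaling and 0.0112 relative to the endothelial markers, so Ednra had no stable direction.

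Ednrb (ENSMUSG00000022122, chromosome 14 from 103814625 to 103844402, minus strand) had FPKM of 7.03, 8.13 and 3.43 with Ang II alone and 3.92, 3.18 and 2.97 with Tec. Ang II replicates 1 and 2 stood far above the rest, and the remaining Ang II heart was under Ang II + Tec replicate 1. The means were 6.20 ± 2.46 (SD, n = 3) and 3.36 ± 0.499 FPKM (SD, n = 3), a log2 fold change of -0.66 (SE 0.27, 95% interval -1.29 to -0.037, unadjusted p-value 0.0405 and adjusted p-value 0.256 in limma). After median-of-ratios scaling it was -0.46 (SE 0.22), and without Ang II replicate 3 it was -0.98 (limma adjusted p-value 0.0053). Within the 3 libraries with atrial transcripts Ednrb had a log2 fold change of -1.03, and in the other 3 libraries it was -0.0034.

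Because both receptors bind endothelin-1, their levels were set against each other heart by heart. The ratio of Ednra to Ednrb FPKM was 0.984, 0.889 and 1.59 with Ang II alone and 1.35, 2.21 and 1.87 with Tec. Ednra exceeded Ednrb in 4 of the 6 hearts, and Ang II replicate 3 had a higher ratio than Ang II + Tec replicate 1. On the scale of log2(FPKM + 1) the ratio averaged 0.12 ± 0.37 (SD, n = 3) with Ang II alone and 0.67 ± 0.30 (SD, n = 3) with Tec. The difference of 0.55 did not pass an exact permutation test over the libraries (two-sided p = 0.2, where 3 hearts against 3 cannot give less than 0.1).

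**Figure D4:**
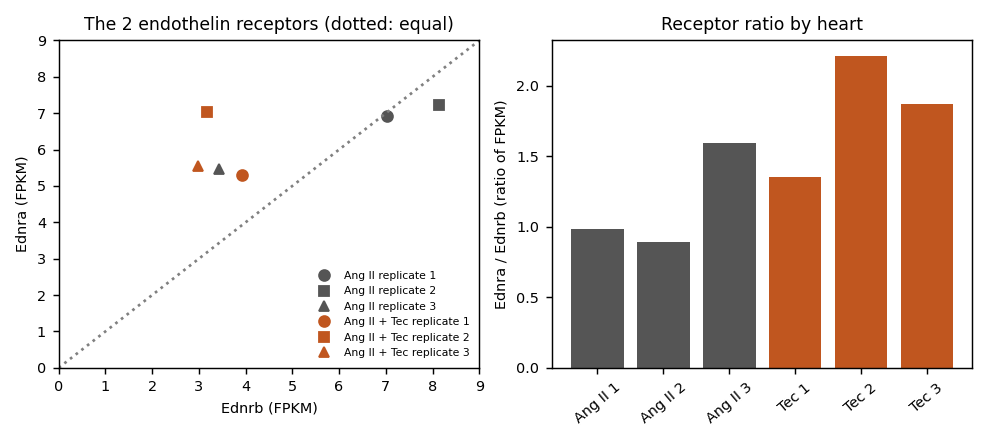
Left, FPKM of Ednra (y axis) against Ednrb (x axis) in each heart, with equal levels on the dotted line; right, the ratio of the 2 FPKM values as a bar for each heart, from 0. Ang II replicates 1 and 2 have ratios of 0.984 and 0.889, and the other 4 hearts lie between 1.35 and 2.21.

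Aplnr (ENSMUSG00000044338, chromosome 2 from 85136225 to 85139923, plus strand), which encodes the apelin receptor, had the lowest unadjusted p-value of the 9 genes. Its FPKM was 7.18, 6.25 and 4.92 with Ang II alone and 5.03, 3.22 and 3.12 with Tec, and the groups overlapped only through Ang II + Tec replicate 1, which lay just above Ang II replicate 3. The means were 6.12 ± 1.14 (SD, n = 3) and 3.79 ± 1.08 FPKM (SD, n = 3), a log2 fold change of -0.58 (SE 0.19, 95% interval -1.03 to -0.13, unadjusted p-value 0.0187 and adjusted p-value 0.229 in limma). After median-of-ratios scaling it was -0.38 (SE 0.19). For Aplnr the log2 fold change was -0.71 without Ang II replicate 3 (limma adjusted p-value 0.029) and stayed between -0.76 and -0.47 whichever single library was left out. Within the 3 libraries with atrial transcripts it was -0.87, and in the other 3 it was -0.25. The ligand Apln and its receptor thus had their highest values in different hearts.

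Of the enzymes, Ece1 (ENSMUSG00000057530, chromosome 4 from 137862237 to 137965229, plus strand) had FPKM of 6.26, 7.55 and 6.59 with Ang II alone and 6.87, 9.67 and 6.74 with Tec. Ang II + Tec replicate 2 was the highest heart and the others lay close together. It had a log2 fold change of 0.15 (SE 0.16, 95% interval -0.21 to 0.52, limma adjusted p-value 0.561), and 0.36 (SE 0.12, unadjusted p-value 0.0204 and adjusted p-value 0.278 in limma) after median-of-ratios scaling. Without Ang II + Tec replicate 2 the deposited values gave 0.0044, so on the deposited scale the difference in Ece1 rested on that heart. The scaled values were not refitted without it. GENCODE M21 lists 4 transcripts of Ece1, which the gene-level FPKM does not tell apart.

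Nos3 (ENSMUSG00000028978, chromosome 5 from 24364810 to 24384474, plus strand) was the most even member. It had FPKM of 5.87, 5.78 and 5.49 with Ang II alone and 5.44, 6.79 and 5.46 with Tec. Only Ang II + Tec replicate 2 departed from the rest, and the highest heart was 1.25 times the lowest. In limma its log2 fold change was 0.033 (SE 0.12, 95% interval -0.25 to 0.32, limma adjusted p-value 0.879). After median-of-ratios scaling it was 0.23 (SE 0.086, unadjusted p-value 0.0321 and adjusted p-value 0.297 in limma). Without Ang II + Tec replicate 2 the deposited values gave -0.057, and the scaled values were not refitted without that heart. Relative to the mean of the endothelial markers Nos3 had a log2 fold change of 0.16.

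Ptgis (ENSMUSG00000017969, chromosome 2 from 167191805 to 167240604, minus strand) had both the highest mean of the 9 genes and the widest range. Its FPKM was 26.45, 35.63 and 5.76 with Ang II alone and 4.51, 15.28 and 6.41 with Tec. The 3 highest hearts were Ang II replicates 1 and 2 and Ang II + Tec replicate 2, the libraries with atrial transcripts, and the other 3 lay between 4.51 and 6.41. The means were 22.6 ± 15.3 (SD, n = 3) and 8.73 ± 5.75 FPKM (SD, n = 3), a log2 fold change of -1.12 (SE 0.66, 95% interval -2.68 to 0.44, limma adjusted p-value 0.365). After median-of-ratios scaling Ptgis was at -0.90 (SE 0.60). It was -1.86 without Ang II replicate 3 (limma adjusted p-value 0.0178) and -0.64 without Ang II replicate 2. Within the 3 libraries with atrial transcripts it was -0.96, in the other 3 it was -0.081, and with the atrial marker level as a covariate it was -0.80 (SE 0.30, limma adjusted p-value 0.170). The summed markers of smooth muscle and pericytes were also highest in the 3 libraries with atrial transcripts, at 278, 479 and 370 FPKM. In the other 3 they were at 249.8, 212 and 215.7 FPKM. The part of tissue composition in the difference was not tested beyond these values.

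In mean FPKM over the 6 hearts the order was Ptgis (15.7), Ece1 (7.28), Ednra (6.25), Nos3 (5.81), Aplnr (4.95), Ednrb (4.78), Adm (3.67), Apln (2.32) and Edn1 (2.30). Adjacent genes in this order mostly changed places between hearts. Ptgis exceeded Ece1 in 3 of the 6 hearts, and the log2 ratio of the pair was 0.68 ± 1.21 (SD, n = 6). Ece1 exceeded Ednra, and Adm exceeded Apln, in 5 of the 6 hearts, and Apln exceeded Edn1 in 4. The order among Ednra, Nos3, Aplnr and Ednrb rests on log2 ratios between neighbours of 0.098 to 0.29, each smaller than its own SD over the hearts. The order also differed between the groups. With Ang II alone the means of Ednrb (6.20) and Aplnr (6.12) were above that of Nos3 (5.71), and that of Edn1 (3.43) above that of Apln (2.55). With Tec the mean of Adm (3.63) was above that of Ednrb (3.36), and Nos3 (5.90) stood next to Ednra (5.96).

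The table's KEGG annotation placed 6 of the 9 members (Edn1, Apln, Adm, Ednra, Ednrb and Aplnr) in neuroactive ligand-receptor interaction, 3 (Apln, Aplnr and Nos3) in apelin signaling, 3 (Edn1, Adm and Ednra) in vascular smooth muscle contraction and 3 (Ednra, Ednrb and Nos3) in cGMP-PKG signaling. Over the 6 hearts, the distance between profiles of log2(FPKM + 1), each centred on its own mean, was smallest for Ece1 and Nos3 (0.277), Ednra and Nos3 (0.283) and Adm and Ednra (0.359). Next came Ednra with Ece1 (0.433), Adm with Nos3 (0.529) and Ednrb with Aplnr (0.582).

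The other tested genes whose centred profiles lay nearest, among genes within a 2-fold range of the same mean FPKM, are given by the same distance over the 6 hearts, 3 for each member. For Edn1 they were Gm7665, Ms4a6d and Cgref1 (0.26 to 0.37), and for Apln Gm7180, 1810044D09Rik and Alox5 (0.22 to 0.25). For Adm they were Tbce, Rab3d and Dnttip2 (0.14 to 0.18). Ednra had the close neighbours Hnrnpul2, Syncrip and Dr1 (0.047 to 0.054), and Nos3 had Tex2, Zmynd11 and Rbl2 (0.047 to 0.056). The nearest to Ednrb were Sap30, Uck2 and Hbegf (0.12 to 0.18), those to Aplnr were Sh2d4a, Rpl31-ps9 and Gm6204 (0.15 to 0.21), and those to Ece1 were Dcxr, Filip1 and P2rx5 (0.14). Ptgis had no neighbour nearer than 0.49, with Aebp1, Serpinf1 and Rcn3 (0.49 to 0.61). The distances of even genes are small by construction, so they cannot be ranked between members.

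Beyond the members, 37 genes of the same pathways were examined from a list, and 24 of them passed the limit on low values. With limma, 0 of the 24 had an adjusted p-value under 0.05, against 0.183% of all tested genes. At an unadjusted p-value under 0.05, 6 were lower (16.5% of all tested genes) and 1 was higher (2.09%). Among the 24, 6 had groups without overlap in the deposited FPKM, 5 lower (18.9% of all tested genes) and 1 higher (2.90%). The median log2 fold change of the 24 was -0.15. Without Ang II replicate 3, 6 of the 24 had an adjusted p-value under 0.05, beside 28.8% of all tested genes, and with arrayWeights 9 of the 24 did, beside 27.1%.

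**Figure D5:**
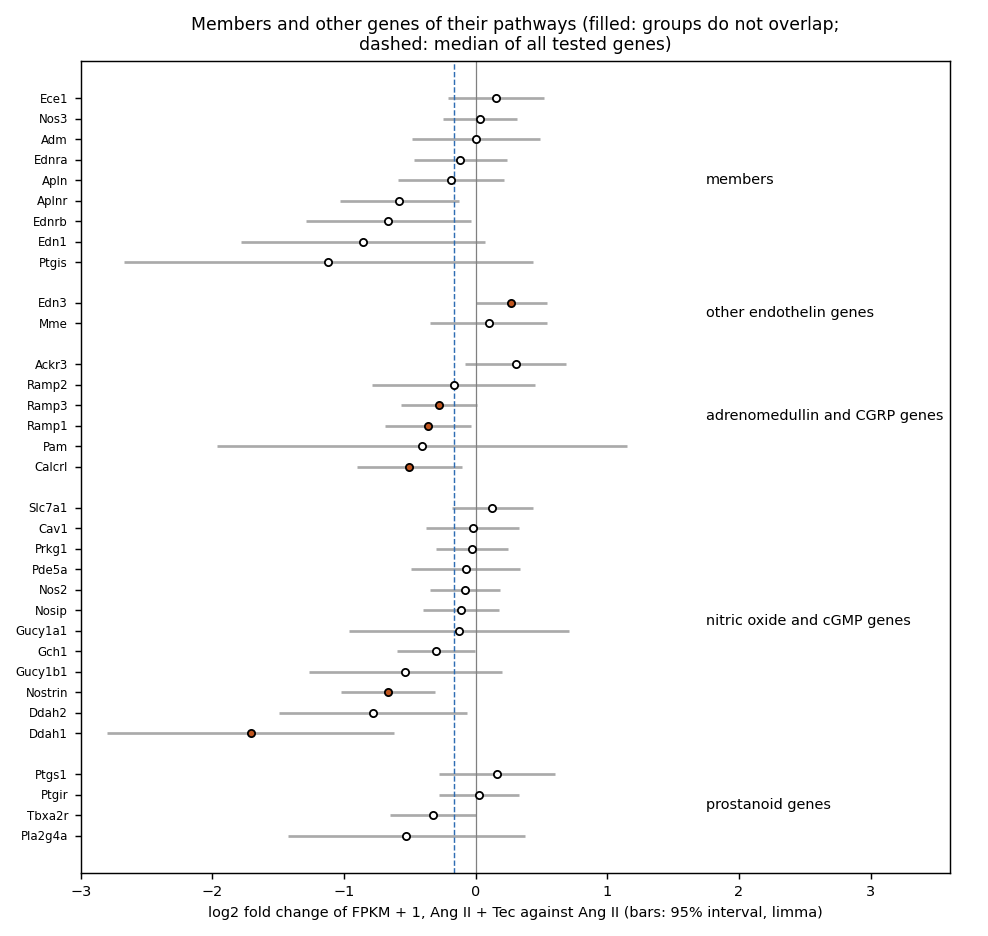
Log2 fold change of FPKM + 1 in the Ang II + Tec group against the Ang II group (x axis) with 95% intervals from limma, for the 9 members and the 24 tested genes of their pathways (y axis). Filled points mark genes whose groups do not overlap in the deposited FPKM, and the dashed line marks the median of all tested genes, -0.17. Ddah1 is the gene farthest to the left.

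Of the tested pathway genes, Nostrin had the lowest p-value and Ddah1 the largest fold change, and both act on nitric oxide synthesis. Nostrin, which encodes a protein that binds endothelial nitric oxide synthase and moves it away from the cell membrane, had FPKM of 5.61, 5.55 and 3.90 with Ang II alone and 2.96, 2.89 and 2.44 with Tec. Every treated heart lay below every Ang II heart. Its log2 fold change was -0.67 (SE 0.15, unadjusted p-value 0.0029 and adjusted p-value 0.188 in limma), and it was -0.48 after median-of-ratios scaling, -0.81 without Ang II replicate 3 (limma adjusted p-value 0.0060) and -0.41 without the 3 libraries with atrial transcripts.

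Ddah1, whose product breaks down asymmetric dimethylarginine, an inhibitor of nitric oxide synthases, had FPKM of 6.73, 9.49 and 1.6 with Ang II alone and 0.82, 0.77 and 0.87 with Tec. The treated hearts were nearly equal, and the groups did not overlap although Ang II replicate 3 stood much nearer to the treated hearts. Its log2 fold change was -1.71 (SE 0.46, limma adjusted p-value 0.203), and without Ang II replicate 3 it was -2.31 (limma adjusted p-value 0.00048). After median-of-ratios scaling Ddah1 was at -1.54 (SE 0.42), and in the 3 libraries without atrial transcripts, with 1 Ang II heart, it was at -0.50. Its paralogue Ddah2, named after its values were seen, had FPKM of 21.16, 24.28 and 9.89 with Ang II alone and 9.64, 10.97 and 8.45 with Tec, and the lowest Ang II heart fell inside the treated range. For Ddah2 the log2 fold change was -0.78 (SE 0.30, limma adjusted p-value 0.249), and it was -1.15 without Ang II replicate 3 (limma adjusted p-value 0.0030), -0.56 (SE 0.24) after median-of-ratios scaling and -0.12 in the 3 libraries without atrial transcripts.

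Other synthases were at low levels. Nos2, the inducible nitric oxide synthase, was between 0.8 and 1.19 FPKM in all 6 hearts, and Nos1, the neuronal form, was at most 0.04 FPKM. Cav1, which encodes the caveolin that holds endothelial nitric oxide synthase at the membrane, had a log2 fold change of -0.023 (SE 0.15, limma adjusted p-value 0.935) at 59.93 to 81.8 FPKM.

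On the adrenomedullin side, Calcrl, which encodes the receptor subunit shared by adrenomedullin and CGRP, had FPKM of 7.2, 7.81 and 4.99 with Ang II alone and 4.63, 4.60 and 3.82 with Tec. In the deposited FPKM the groups did not overlap, with 4.99 in the lowest Ang II heart and 4.63 in the highest treated heart. Median-of-ratios scaling divides these values by 0.944 and 0.868, so this small gap depends on the scale. For Calcrl the log2 fold change was -0.50 (SE 0.17, limma adjusted p-value 0.229), and it was -0.30 after median-of-ratios scaling and -0.67 without Ang II replicate 3 (limma adjusted p-value 0.0104). Ramp1 encodes the partner of Calcrl in the CGRP receptor. It had FPKM of 4.37, 5.21 and 5.87 with Ang II alone and 3.4, 4.32 and 3.62 with Tec. The highest Ramp1 value was in Ang II replicate 3. For Ramp1 the log2 fold change was -0.36 (SE 0.14, limma adjusted p-value 0.246), and it was -0.17 (SE 0.15) after median-of-ratios scaling, -0.12 within the libraries with atrial transcripts and -0.61 in the other 3. Ramp2 and Ramp3 encode the partners of Calcrl in the adrenomedullin receptors. Their log2 fold changes were -0.17 (SE 0.26) and -0.28 (SE 0.12). In the deposited FPKM the groups overlapped for Ramp2 and not for Ramp3.

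Pam, named after its values were seen, encodes the enzyme that amidates peptides such as adrenomedullin and is abundant in atrial muscle. It was at 79.34, 121.1 and 119.9 FPKM in the 3 libraries with atrial transcripts (Ang II replicates 1 and 2 and Ang II + Tec replicate 2) and at 28.67, 35.74 and 27.07 FPKM in the other 3. The split followed the atrial markers in both treatment groups, and the log2 fold change of Pam between the treatment groups was -0.41 (SE 0.66), and -0.18 (SE 0.60) after median-of-ratios scaling.

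Edn3, a further endothelin, was the tested pathway gene with higher values in every treated heart. It had FPKM of 0.72, 0.53 and 0.43 with Ang II alone and 1.04, 0.80 and 0.80 with Tec. Its log2 fold change was 0.27 (SE 0.11, unadjusted p-value 0.0482 and adjusted p-value 0.266 in limma), and after median-of-ratios scaling 0.37 (SE 0.11). Calca, which encodes calcitonin and CGRP and was named after its values were seen, was too low to be tested. It was listed at 0 FPKM in the 3 Ang II hearts and at 0.23, 0.12 and 0.27 FPKM with Tec. Mme, which encodes neprilysin, a peptidase that degrades endothelin and other vasoactive peptides, stood at 0.098 on the log2 scale (SE 0.19, limma adjusted p-value 0.765). Edn2 was at most 0.04 FPKM, and Apela, the second ligand of the apelin receptor, was at most 0.05 FPKM.

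Of the prostanoid genes, Tbxa2r, the thromboxane receptor gene, had FPKM of 1.70, 1.73 and 1.10 with Ang II alone and 0.87, 1.16 and 0.95 with Tec. Its log2 fold change was -0.32 (SE 0.14, limma adjusted p-value 0.268), and without Ang II replicate 3 it was -0.45 (limma adjusted p-value 0.0285). Tbxa2r was at -0.19 (SE 0.084) after median-of-ratios scaling and at -0.14 in the 3 libraries without atrial transcripts. Pla2g4a, which encodes the phospholipase that releases arachidonic acid, had FPKM of 2.03, 3.6 and 0.49 with Ang II alone and 0.77, 1.38 and 0.65 with Tec, with the lowest value in Ang II replicate 3. For Pla2g4a the log2 fold change was -0.53 (SE 0.38, limma adjusted p-value 0.435), and -0.97 without Ang II replicate 3 (limma adjusted p-value 0.0203). It was -0.15 without Ang II replicate 2, -0.38 (SE 0.34) after median-of-ratios scaling and 0.20 in the 3 libraries without atrial transcripts, so its size and direction depended on these hearts. The prostacyclin receptor gene Ptgir had a log2 fold change of 0.026 (SE 0.13), beside the -1.12 of the synthase gene Ptgis. Ptgs2, a further prostanoid gene named after its values were seen, did not pass the limit on low values. It was at 1.22, 4.09 and 0.08 FPKM with Ang II alone and at 0.17, 0.37 and 0.22 FPKM with Tec. Its lowest value was thus in Ang II replicate 3.

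Other genes of the table overlapped 5 of the 9 members, each on the opposite strand, and the sources used here do not state whether reads were counted by strand. Apart from 1 gene they were at or below 0.62 FPKM. That gene was 1110018N20Rik, which overlaps the 3′ end of Ptgis and was between 2.67 and 3.36 FPKM, a near-even level beside the 4.51 to 35.63 FPKM of Ptgis.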

How the data were processed

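The comparison was 3 Ang II hearts with 3 Ang II + Tec hearts, grouped by title. FPKM per gene and library were deposited by the authors, whose reads went through Cutadapt trimming and FastQC. The submitters' processing notes name HISAT2 2.0, StringTie 1.3.0, Bowtie 0.12.2 and the build mm8 without giving their roles. Gene coordinates were instead those of GENCODE M21 (GRCm38) for 27947 of the 30832 genes in both, and for all 9 members.

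FPKM keep no read total. Ratios of low values between libraries showed no common step (at most 17.9% fell in 1 narrow bin), so the read total of each library is unknown (the study's methods state only a nominal coverage), no counting interval is given, and the spread between hearts is the error. Titles number the hearts and give no further origin, so p-values measure the spread between these libraries.

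Values of log2(FPKM + 1) entered linear models in limma 3.58.1 (R 4.3.3; empirical Bayes with a mean trend), Ang II + Tec against Ang II, without covariates, over genes reaching 0.5 FPKM in 3 or more libraries, with Benjamini-Hochberg adjustment over all 13089. The fit was also run on simulated data with independent noise for each gene. No simulated library departed as a whole, so that run does not cover the dependence on Ang II replicate 3. Alternatives were a pseudocount of 0.1, no filter, other scalings, library weights, a replicate block and each library left out. The receptor ratio was tested by exact permutation. Figures were drawn with matplotlib 3.10.9.

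The members, gene lists and tests were chosen with earlier results of these data known. The genes named were all 9 members, the 2 genes with the lowest unadjusted p-value in each pathway list with tested genes, and the 3 genes of nearest profile for each member. Pathway genes named beside these were chosen after their values were seen. Motifs for the CCAAT box and the GC box, and the fits by atrial transcripts, were added after seeing the data.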

Additional observations from a re-analysis of the deposited data

How the results depend on the processing

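The log2 fold changes of Edn1, Ednrb, Aplnr and Ptgis were below 0 in all 17 alternatives, ranging from -1.46 to -0.21, -1.03 to -0.0034, -0.87 to -0.25 and -1.86 to -0.081. The values nearest 0 came without the 3 libraries with atrial transcripts, an alternative chosen after seeing the data, which leaves 1 Ang II heart against 2 with Tec. The number of members with an adjusted p-value under 0.05, 0 in the main analysis, was 3 with arrayWeights and ranged from 0 to 4 (without Ang II replicate 3) over the fits without 1 library. Over all tested genes the 24 calls became 3 without the filter on low FPKM, 3542 with arrayWeights, and 2 to 3776 over the fits without 1 library. Both splits by atrial transcripts have 1 heart in 1 arm, assumed to vary like the others, and so say little about stability. Limma gave 0 calls without those 3 libraries (1112 at an unadjusted p-value under 0.05) and 47 within them, and 15 with the atrial marker level as a covariate.

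The members and the pathway genes Edn3, Mme, Calcrl, Ramp1, Nostrin, Ddah1, Ddah2, Tbxa2r, Pla2g4a and Pam were followed through the alternatives. Directions turned for 8 of them. Cav1, Ptgir, Ramp2 and Ramp3 were not followed. Ednra was at 0.088 after median-of-ratios scaling, 0.099 after quantile normalization and 0.011 relative to the endothelial markers. With arrayWeights Adm was at -0.21, Ece1 at -0.067 and Nos3 at -0.045. Over the fits without 1 library Adm ranged from -0.22 to 0.17 and Nos3 from -0.057 to 0.080. Without the 3 atrial libraries Nos3 was at -0.0089, Mme at -0.34, Pla2g4a at 0.20 and Pam at 0.11. Within them Apln was at 0.0003, Adm at -0.083 and Pam at 0.29. Over the fits without 1 library Mme ranged from -0.076 to 0.23 and Pam from -1.05 to 0.033. The causes were not tested.

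With a replicate block there were 23 calls over all genes and 0 among the members. Deviations of same-numbered libraries correlated at -0.039, 0.43 and 0.38, and those of differently numbered libraries at -0.44 to 0.23. The titles state no pairing, so the numbers were not taken as pairs in the main fit. For the receptor ratio the alternatives were a pseudocount of 0.1 and each library left out, and the difference kept its direction in 7 of 7. None of these tests could give a p under 0.1. The splits by atrial transcripts were not among them. In the libraries without atrial transcripts, the log2 ratio of Ang II replicate 3 was 0.54. That lay between the 0.36 and 0.72 of Ang II + Tec replicates 1 and 3.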
